A study of Mus musculus with 26 samples.

Results

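The genes described here are 9 members of the Bcl2 family and the apoptosis pathway, Mcl1, Bcl2, Bcl2l1, Bcl2l11, Bax, Bak1, Bbc3, Pmaip1 and Casp8, in mouse embryonic stem cells depleted of an RNA methylation enzyme. They were taken by name, and each was represented by the brightest probe set that a probe table pairs with that symbol alone. Such a probe set was found for 8 of the 9 members. Bax had none and was not analysed here. All 8 passed the filter on dim signal, among 14787 genes tested of 22180 genes with a probe set of their own.

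J1 is a line of mouse embryonic stem cells, and its RNA was measured on 26 arrays (Affymetrix Mouse Gene 2.0 ST) in 13 groups of 2. In a time course of 18 arrays, cells with Mettl14 knockdown, with Mettl3 knockdown and with a scramble control were each collected at 0, 4 and 8 h. A repeat set of 8 arrays held Mettl14 knockdown and Mettl3 knockdown at 0 h, each with a scramble control of its own. All groups grew in serum with leukaemia inhibitory factor on irradiated mouse embryo fibroblasts, per the labels' protocols. The labels tell of lentiviral shRNA and of transfected siRNA without saying which arrays had which, and name no agent for the 4 and 8 h incubations. They call the replicates biological without saying whether these were separate cultures, so the p-values measure only the spread between these arrays, which may be technical. Both scramble controls of the repeat set have a replicate 2 described as 4 h, although 3 other label fields give 0 h, and these arrays were taken as 0 h.

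Cells start apoptosis by a mitochondrial and by a death receptor route. In the mitochondrial route, prosurvival proteins (Bcl2, Bcl2l1 and Mcl1) hold the pore-forming effectors Bax and Bak1 in check, and BH3-only proteins (Bcl2l11, Bbc3 and Pmaip1) release them. Cytochrome c then leaves the mitochondria and activates caspases. In the death receptor route, receptors bound to their ligand activate the initiator caspase Casp8. Mouse embryonic stem cells are known to enter apoptosis readily after DNA damage. Mettl3 and Mettl14 form the complex that writes N6-methyladenosine on mRNA, a mark known to speed the decay of many transcripts.

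The targeted genes followed their labels. Mettl14 fell by 1.70 ± 0.13 on the log2 scale (SE) in Mettl14 knockdown of the time course at 0 h, and by 1.36 ± 0.10 in the repeat set. The only probe set for Mettl3 is also listed for Tox4. Its log2 change in Mettl3 knockdown was -1.89 ± 0.10 in the time course and -2.08 ± 0.06 in the repeat set, and -0.50 ± 0.10 and -0.45 ± 0.06 in Mettl14 knockdown. Tox4's own probe set differed from scramble by 0.10 and by -0.17 in Mettl3 knockdown of these sets, with neither value past the threshold. Replicate arrays correlated at 0.987 to 0.993 over all probe sets. Of the defining stem cell markers, Nanog gave 11.9 to 12.9 on the log2 signal scale, Sox2 9.46 to 12.5 and Pou5f1 7.75 to 9.40. Of the 7 defining markers of the feeder fibroblasts, Dcn, Lum and Postn had medians of 5.39, 4.29 and 4.79, under the lowest mean kept among tested genes (6.00). The other 4 lay above it, with medians of 7.98 for Col1a1, 7.45 for Thy1, 6.86 for Col1a2 and 6.54 for Col3a1.

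Casp8, the caspase that relays death receptor signals, had the widest range of group means among the members, 3.42 on the log2 scale over both sets. Its extremes lie in different sets, and the range was 2.87 within the time course and 1.815 within the repeat set. Casp8 also had the highest knockdown effect of the members in all 8 comparisons. The gene lies on chr1:58795233-58847503 (GRCm38.p6). Bcl2l11 (Bim), at chr2:128126038-128162547, had the next widest range at 1.94 and had the lowest 8 h change of the members in every treatment. The 250 bases before a transcript start of each are shown because these genes mark the extremes of the knockdown comparisons and of the time course. Casp8's window lies on the plus strand at chr1:58802252-58802501, within the annotated span of the gene, which starts further upstream for other transcripts. Bcl2l11's window lies on the plus strand at chr2:128125788-128126037, right before the annotated gene. Sequences are RefSeq's for GRCm38.p6, 5′ to 3′, and capitals mark matches to the motifs searched.
Casp8: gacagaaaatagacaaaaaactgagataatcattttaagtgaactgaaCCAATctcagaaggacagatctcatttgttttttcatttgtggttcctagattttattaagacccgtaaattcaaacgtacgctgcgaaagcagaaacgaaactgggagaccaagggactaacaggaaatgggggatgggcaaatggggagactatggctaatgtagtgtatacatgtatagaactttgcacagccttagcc
Bcl2l11: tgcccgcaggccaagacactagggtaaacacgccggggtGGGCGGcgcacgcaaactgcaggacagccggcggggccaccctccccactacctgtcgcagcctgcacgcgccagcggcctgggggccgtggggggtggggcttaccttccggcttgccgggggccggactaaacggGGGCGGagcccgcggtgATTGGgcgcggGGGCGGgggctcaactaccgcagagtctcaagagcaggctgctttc
The windows were searched on both strands for the TATA box (TATAAA), the CCAAT box (CCAAT), the GC box (GGGCGG), an AP-1 site (TGANTCA) and an E-box (CACGTG), none of which overlap each other here. Casp8's window held 1 CCAAT box and no other motif, with 39.6% G and C and 5 CG pairs. Bcl2l11's window held 3 GC boxes and 1 CCAAT box, with 72% G and C and 24 CG pairs. Over 32851 RefSeq windows of this length, 33.8% held a CCAAT box, 32.7% a GC box, 12.4% a TATA box, 6.75% an AP-1 site and 6.02% an E-box. The median window had 52.4% G and C and 6 CG pairs.

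Among the members on the array, 4 rose and none fell in Mettl14 knockdown against scramble at 0 h of the time course, where 39.5% of all genes passed an adjusted p of 0.05 in either direction. In Mettl3 knockdown 5 rose and none fell, against 37.8% of all genes. At 4 h, 5 members rose in Mettl14 knockdown (39.5% of all genes called) and 6 in Mettl3 knockdown (37.8%). At 8 h, 5 rose and 1 fell in Mettl14 knockdown (43.6%), and 5 rose in Mettl3 knockdown (42.8%). Against their own scramble in the repeat set, 4 rose and 1 fell in Mettl14 knockdown (36.2%), and 5 rose and 2 fell in Mettl3 knockdown (35.3%). The time course count of Mettl3 knockdown moved between 3 and 5 at 0 h, and between 3 and 6 at 4 h, when each array was left out in turn. That of Mettl14 knockdown at 4 h moved between 3 and 5, and that of Mettl3 knockdown in the repeat set came to 4 or 5 whichever array was left out. The median log2 change of the 8 members at 0 h in the time course was 0.30 in Mettl14 knockdown and 0.45 in Mettl3 knockdown, beside -0.004 and 0.003 over all genes tested. For the repeat set it was 0.13 and 0.22, beside -0.001 and 0.004 over all genes. Knockdown comparisons within a set and time share their scramble arrays in the time course and do not in the repeat set. The signal is that of a whole culture, so fewer cells with a transcript and less of it per cell cannot be told apart.

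**Figure D1:**
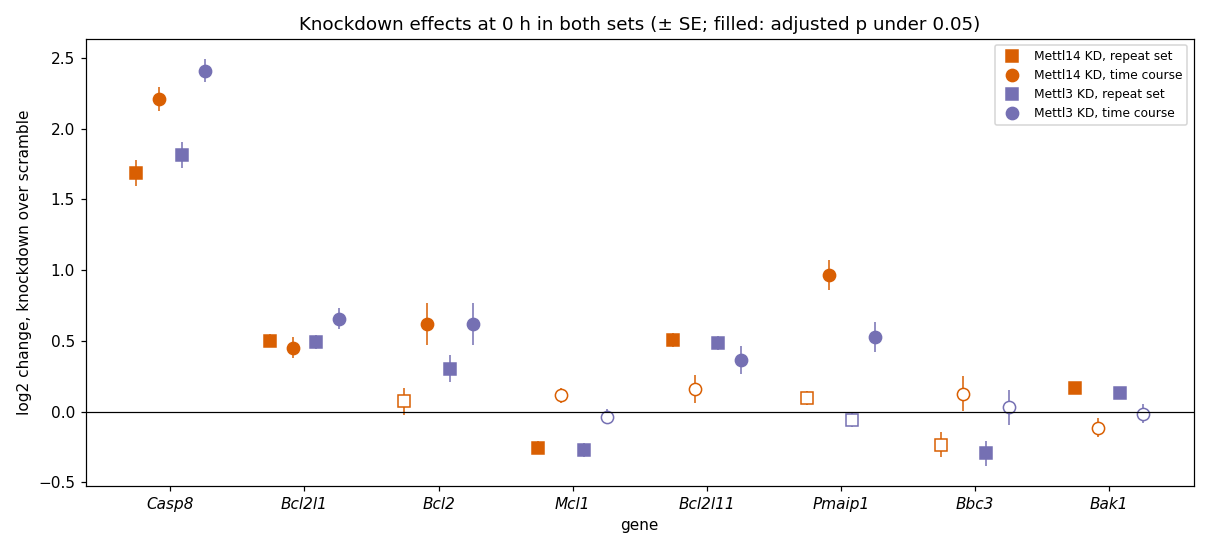
Log2 change of the 8 members with a probe set, knockdown over scramble at 0 h, in the repeat set (squares) and the time course (circles), with Mettl14 knockdown in orange and Mettl3 knockdown in purple. Bars are standard errors, and filled symbols passed an adjusted p of 0.05. Casp8 stands at 1.68 to 2.41 in every comparison, Bcl2l1 at 0.45 to 0.66, and Pmaip1 at 0.53 and 0.96 in the circles and at -0.06 and 0.10 in the squares.

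Casp8 gave 10.30 and 10.17 on the log2 signal scale on the arrays of Mettl14 knockdown at 0 h, 10.37 and 10.49 in Mettl3 knockdown, and 8.05 and 7.99 in scramble. At 4 h it gave 10.66 on both arrays of Mettl14 knockdown, 10.95 and 10.84 in Mettl3 knockdown, and 8.70 and 8.51 in scramble. At 8 h the arrays gave 10.43 and 10.52 in Mettl14 knockdown, 10.96 and 10.83 in Mettl3 knockdown, and 8.73 and 8.60 in scramble. Every knockdown array lay above every scramble array of the time course. The repeat arrays of Mettl14 knockdown gave 9.15 and 9.16 against 7.50 and 7.44 in their scramble. Those of Mettl3 knockdown gave 9.26 and 9.31 against 7.62 and 7.33 in theirs. Again no knockdown array overlapped a scramble array. At 0 h this was a rise of 2.21 ± 0.08 in Mettl14 knockdown (4.63-fold, adjusted p = 1.352e-09) and 2.41 ± 0.08 in Mettl3 knockdown (5.31-fold, adjusted p = 9.981e-10). The rises of the repeat set were 1.68 ± 0.09 (3.21-fold, adjusted p = 5.086e-05) and 1.81 ± 0.09 (3.51-fold, adjusted p = 5.224e-05). Among the genes tested, Casp8 ranked 22 and 14 from the top in Mettl14 and Mettl3 knockdown of the time course, and 17 and 5 in the repeat set. The rises were 2.06 and 2.29 at 4 h and 1.81 and 2.23 at 8 h. All 8 knockdown calls of Casp8 were kept under every alternative setting and with each array left out.

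**Figure D2:**
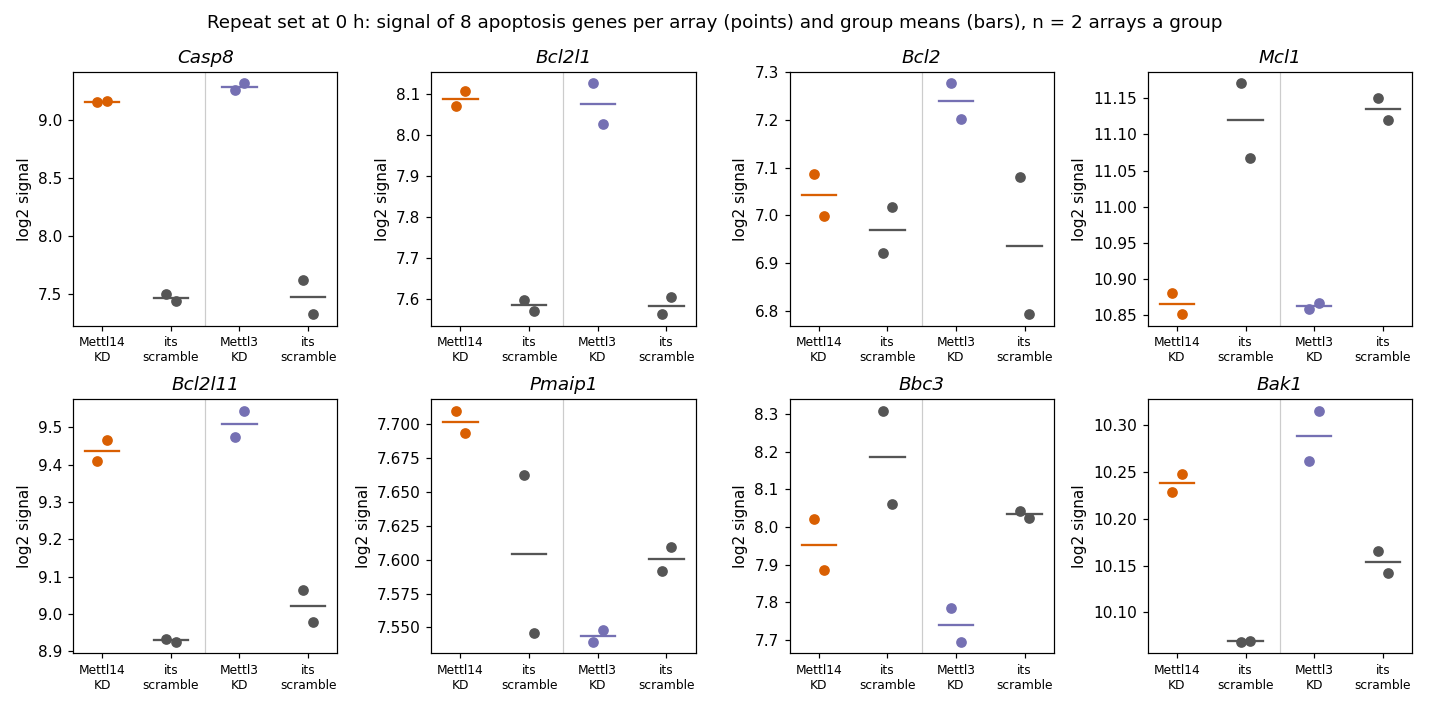
Log2 signal of the 8 members on each array of the repeat set at 0 h (points) with group means (bars), for Mettl14 knockdown and its scramble and for Mettl3 knockdown and its scramble. Each panel has an axis of its own that does not start at 0. Casp8 and Bcl2l11 lie above their scramble arrays in both knockdowns, and Mcl1 lies below.

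Bcl2l1 (Bcl-xL), a prosurvival protein of the outer mitochondrial membrane encoded on chr2:152758732-152833803, was the other member that rose in all 8 knockdown comparisons. At 0 h its arrays gave 8.63 and 8.69 in Mettl14 knockdown, 8.80 and 8.92 in Mettl3 knockdown, and 8.20 and 8.21 in scramble. The rises were 0.45 ± 0.08 (adjusted p = 0.000431) and 0.66 ± 0.08 (adjusted p = 2.413e-05). They were 0.44 and 0.55 at 4 h, and 0.67 and 0.81 at 8 h, in Mettl14 and Mettl3 knockdown (SE 0.08 each). The repeat arrays gave 8.07 and 8.11 in Mettl14 knockdown against 7.60 and 7.57 in its scramble, and 8.13 and 8.03 in Mettl3 knockdown against 7.56 and 7.61 in its scramble. Those were rises of 0.50 ± 0.05 and 0.49 ± 0.05, with adjusted p-values of 0.0003966 and 0.0005031. No knockdown array overlapped its scramble arrays at 0 h in either set. All 8 calls were kept under every alternative. At 0 h the rise placed Bcl2l1 above 90.9% to 94.9% of the genes tested, a smaller standing than Casp8's 99.9% or more.

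Bcl2, the founding prosurvival member, at chr1:106538176-106714290, gave 7.27 and 7.50 in Mettl14 knockdown at 0 h, 7.38 on both arrays of Mettl3 knockdown, and 6.99 and 6.54 in scramble. These scramble replicates stood further apart than any other pair of this gene. Bcl2 rose by 0.62 ± 0.15 in each knockdown (adjusted p = 0.005066 in Mettl14 and 0.00523 in Mettl3 knockdown). Without scramble replicate 2 the values were 0.39 in each and lost the call (adjusted p = 0.06488 and 0.06631). Without replicate 2 of Mettl14 knockdown its value was 0.50 (adjusted p = 0.0527). At 4 h the rises were 0.56 and 0.49, and both lost the call without scramble replicate 1 (0.43 and 0.36) or without replicate 2 of the knockdown (0.51 and 0.43). At 8 h neither passed, at 0.21 ± 0.15 and 0.28 ± 0.15. Repeat arrays of Mettl14 knockdown gave 7.09 and 7.00 against 6.92 and 7.02 in scramble, and the change of 0.07 ± 0.10 did not pass. Mettl3 knockdown gave 7.28 and 7.20 against 7.08 and 6.79 in its scramble, a rise of 0.30 ± 0.10 (adjusted p = 0.04683) that lost the call without 7 of the 8 arrays, at 0.16 to 0.34, and without the filter, under quantile normalization (0.28) and with 1 fit over all arrays. A second, dimmer probe set of Bcl2 (mean 5.31) did not move with the first (r = 0.005 over the 26 arrays, as a description), and with the mean of both the values at 0 h were 0.29 in Mettl14 knockdown, which did not pass (adjusted p = 0.07173), and 0.32 in Mettl3 knockdown (adjusted p = 0.04818). At 4 h they became 0.24 and 0.13, and in Mettl3 knockdown of the repeat set 0.12, and none of these 3 passed (adjusted p = 0.1406, 0.4242 and 0.5856).

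Mcl1, a prosurvival protein known for its short life as protein and mRNA, at chr3:95656944-95663179, did not pass the test at 0 h in the time course. Its arrays gave 11.84 and 11.88 in Mettl14 knockdown, 11.77 and 11.64 in Mettl3 knockdown, and 11.74 on both scramble arrays. The differences were 0.12 ± 0.05 (95% interval 0.00172 to 0.231, adjusted p = 0.1019) and -0.04 ± 0.05 (-0.151 to 0.0785, adjusted p = 0.63). The Mettl14 value passed under the trended eBayes (0.12), quantile normalization (0.18) and the scaling on long-lived transcripts described further on (0.19). At 8 h both knockdowns lay above scramble, with 11.09 and 11.10 in Mettl14 knockdown and 11.08 and 11.13 in Mettl3 knockdown against 10.56 and 10.62 in scramble. Mcl1 rose there by 0.51 ± 0.05 and 0.52 ± 0.05 (adjusted p = 8.229e-06 and 7.423e-06). At 4 h the rises were 0.20 in Mettl14 knockdown and 0.15 in Mettl3 knockdown. The Mettl14 call was lost without scramble replicate 1 (0.18), and the Mettl3 call without any of the 4 arrays it compares (0.13 to 0.18) and without the filter. With the mean of its probe sets, of which the second is dimmer, neither 4 h value passed (0.19, adjusted p = 0.1443, and 0.16, adjusted p = 0.2305). Mcl1 was lower in both knockdowns of the repeat set. Mettl14 knockdown gave 10.88 and 10.85 against 11.17 and 11.07 in its scramble, and Mettl3 knockdown gave 10.86 and 10.87 against 11.15 and 11.12 in its own. The falls were 0.25 ± 0.05 and 0.27 ± 0.05 (adjusted p = 0.006902 and 0.005219), with no overlap of arrays.

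Bcl2l11, a BH3-only protein that binds every prosurvival member, rose in 6 of the 8 knockdown comparisons. At 0 h its arrays gave 9.68 and 9.59 in Mettl14 knockdown, 9.82 and 9.86 in Mettl3 knockdown, and 9.52 and 9.44 in scramble. The difference of 0.16 ± 0.10 in Mettl14 knockdown did not pass (adjusted p = 0.2362). The rise of 0.37 ± 0.10 in Mettl3 knockdown (adjusted p = 0.01082) lost its call without replicate 2 of scramble (0.33) or of Mettl3 knockdown (0.35). At 4 h the Mettl14 value was 0.11 ± 0.10 and did not pass, and the Mettl3 rise of 0.33 lost its call without replicate 2 of scramble (0.27) or of the knockdown (0.30). At 8 h both rose, by 0.47 ± 0.10 in Mettl14 knockdown and 0.65 ± 0.10 in Mettl3 knockdown. Without scramble replicate 2 at 8 h the Mettl14 rise was 0.27 and kept its call. The repeat set gave 9.41 and 9.47 in Mettl14 knockdown against 8.93 on both of its scramble arrays, and 9.47 and 9.55 in Mettl3 knockdown against 9.07 and 8.98 in its scramble. These were rises of 0.51 ± 0.05 and 0.49 ± 0.05 (adjusted p = 0.0004398 and 0.0005917) that all alternatives kept.

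Pmaip1 (Noxa), a BH3-only protein that binds Mcl1 and is a known p53 target, lies on chromosome 18. It gave 8.33 and 8.31 in Mettl14 knockdown at 0 h of the time course, 8.06 and 7.70 in Mettl3 knockdown, and 7.41 and 7.31 in scramble. It rose by 0.96 ± 0.11 in Mettl14 knockdown (1.95-fold, adjusted p = 1.531e-05) and by 0.53 ± 0.11 in Mettl3 knockdown (1.44-fold, adjusted p = 0.001782). The rises were 0.84 and 0.59 at 4 h and 0.80 and 0.60 at 8 h, and all 6 calls were kept under every alternative. The replicates of Mettl3 knockdown at 0 h stood apart, and without replicate 1 that rise was 0.34. The repeat arrays lay close together, at 7.71 and 7.69 in Mettl14 knockdown against 7.66 and 7.55 in its scramble, and at 7.54 and 7.55 in Mettl3 knockdown against 7.59 and 7.61 in its own. The differences were 0.10 ± 0.05 (adjusted p = 0.1742) and -0.06 ± 0.05 (adjusted p = 0.4175).

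Bbc3 (Puma), another BH3-only protein and known p53 target, at chr7:16308398-16318334, passed in none of the 6 knockdown comparisons of the time course. Its values there lay between 0.02 and 0.15. At 0 h its arrays gave 7.28 and 7.40 in Mettl14 knockdown, 7.30 and 7.18 in Mettl3 knockdown, and 7.19 and 7.23 in scramble. The repeat set gave 8.02 and 7.89 in Mettl14 knockdown against 8.31 and 8.06 in scramble, a difference of -0.23 ± 0.09 that did not pass (adjusted p = 0.08253). It passed under the trended eBayes and the replicate block, under quantile normalization (-0.29) and without scramble replicate 2 (-0.36). Mettl3 knockdown gave 7.79 and 7.70 against 8.04 and 8.03 in its scramble. That fall of 0.29 ± 0.09 (adjusted p = 0.04054) lost the call without either array of Mettl14 knockdown or any array of Mettl3 knockdown or its scramble, at -0.34 to -0.25, under the long-lived scaling (-0.24), without the filter and with 1 fit over all arrays.

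Bak1, an effector that forms pores in the outer mitochondrial membrane, at chr17:27019812-27028627, passed in 3 of the 8 knockdown comparisons. At 0 h of the time course it gave 10.27 and 10.39 in Mettl14 knockdown, 10.50 and 10.35 in Mettl3 knockdown, and 10.41 and 10.47 in scramble. Neither -0.11 ± 0.07 nor -0.01 ± 0.07 passed, nor did -0.07 and -0.01 at 4 h. At 8 h it fell by 0.26 ± 0.07 in Mettl14 knockdown (adjusted p = 0.005987), where 10.81 and 10.82 stood against 11.06 and 11.09 in scramble, and did not pass in Mettl3 knockdown (-0.11 ± 0.07). On the repeat arrays Bak1 gave 10.23 and 10.25 in Mettl14 knockdown against 10.07 on both scramble arrays, and 10.26 and 10.32 in Mettl3 knockdown against 10.17 and 10.14 in its scramble. The rises of 0.17 ± 0.04 and 0.13 ± 0.04 (adjusted p = 0.0182 and 0.04223) were both fragile. The Mettl14 call was lost without any array it compares (0.16 to 0.18), and the Mettl3 call without any of the 8 arrays of the set (0.11 to 0.16). Both were lost without the filter, and the Mettl3 call also with the replicate block and with 1 fit over all arrays. Bax, its fellow effector at chr7:45461695-45466903, has no value here.

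**Figure D3:**
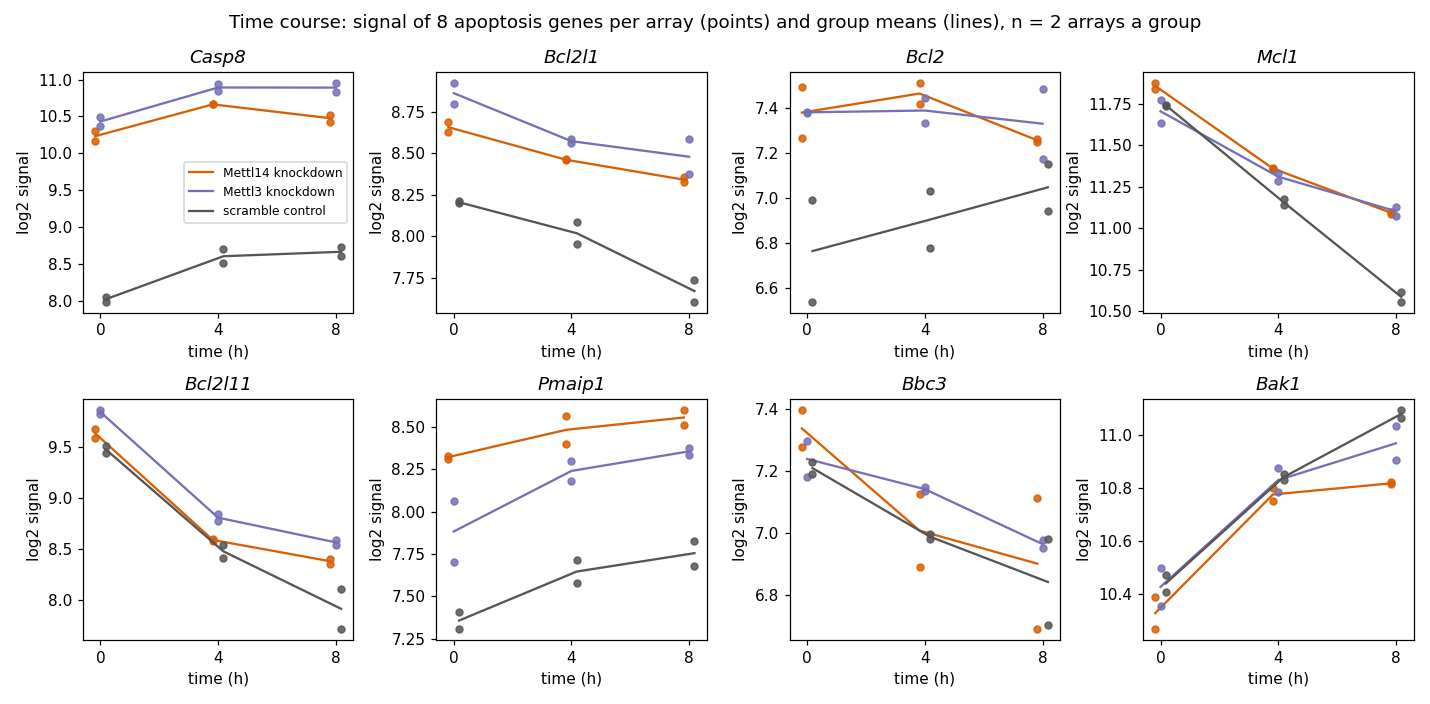
Log2 signal of the 8 members against time in the time course, with a point for each array and lines through the means of 2 arrays, for Mettl14 knockdown (orange), Mettl3 knockdown (purple) and scramble (grey), set slightly apart sideways. Each panel has an axis of its own that does not start at 0. Casp8 keeps a gap of 1.81 to 2.41 between knockdowns and scramble at every time. Mcl1 starts at 0.12 and -0.04 from scramble in Mettl14 and Mettl3 knockdown, neither past the threshold, and ends with both knockdowns 0.51 and 0.52 above scramble.

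Over 8 h, Mcl1, Bcl2l11 and Bcl2l1 lost signal in every treatment. Bak1 and Casp8 gained against the array in every treatment, and did so less, or not at all, under the long-lived scaling described below. Of the 8 members, 2 rose and 4 fell in Mettl14 knockdown between 0 and 8 h, where 56.2% of all genes passed. In Mettl3 knockdown 3 rose and 3 fell (56.1% of all genes), and in scramble 3 rose and 4 fell (60.8%). By 4 h, 2 had risen and 4 fallen in Mettl14 knockdown (46.2% of all genes), 3 and 3 in Mettl3 knockdown (44.6%), and 3 and 2 in scramble (46.3%). These values are relative to the array: with the median of 30 transcripts known to be long-lived set equal on all arrays, the median gene moved down by 0.215 to 0.408 in these 6 comparisons. The share of higher genes among those called fell to between 7.53% and 17.4%, against 64.5% to 71.5% without that scaling. Under it, Mettl3 knockdown at 4 h had 3 members called instead of 6.

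Bcl2l11 fell by 1.05 at 4 h and 1.26 at 8 h in Mettl14 knockdown, by 1.04 and 1.28 in Mettl3 knockdown, and by 1.00 and 1.57 in scramble (SE 0.10 each). At 8 h it stood at 41.8% of its signal at 0 h in Mettl14 knockdown, 41.1% in Mettl3 knockdown and 33.7% in scramble. Its 8 h fall placed it among the 263 to 337 genes with the lowest values of all tested. Most of that loss was reached by 4 h. Scramble arrays at 8 h were 8.11 and 7.71, the widest pair of this gene.

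Mcl1 fell by 0.50 at 4 h and 0.76 at 8 h in Mettl14 knockdown, by 0.39 and 0.60 in Mettl3 knockdown, and by 0.58 and 1.15 in scramble (SE 0.05 each). At 8 h it stood at 58.9% of its 0 h signal in Mettl14 knockdown, 65.9% in Mettl3 knockdown and 45% in scramble. The 8 h change differed from that of scramble by 0.39 ± 0.07 in Mettl14 knockdown (adjusted p = 0.01209) and by 0.55 ± 0.07 in Mettl3 knockdown (adjusted p = 0.00262). Mcl1 was the only member called in these tests, where 4.99% of all genes passed for Mettl14 knockdown and 3.47% for Mettl3 knockdown. Both calls were kept with each array left out and under the long-lived scaling. A second, dimmer probe set of Mcl1 (mean 7.09) fell by 0.52 ± 0.17 in scramble (adjusted p = 0.01583), and its changes of -0.14 ± 0.17 in Mettl14 knockdown and -0.13 ± 0.17 in Mettl3 knockdown did not pass. With the mean of both probe sets the falls against 0 h became 0.27 at 4 h and 0.45 at 8 h in Mettl14 knockdown. They became 0.17 and 0.37 in Mettl3 knockdown, where the 4 h fall lost its call (adjusted p = 0.1743). The differences from scramble were then 0.39 and 0.47 and did not pass (adjusted p = 0.138 and 0.0807). Under the long-lived scaling the falls were larger, at 0.78 and 1.17 in Mettl14 knockdown and 0.63 and 0.96 in Mettl3 knockdown. Bcl2l11's 8 h change differed from that of scramble by 0.31 ± 0.14 in Mettl14 knockdown and 0.29 ± 0.14 in Mettl3 knockdown, which passed without scramble replicate 1 at 8 h (0.51 and 0.48) and not with it (adjusted p = 0.2546 and 0.2922). Casp8's 8 h change differed from scramble by -0.40 ± 0.12 in Mettl14 knockdown and missed the threshold (adjusted p = 0.0736), which it passed under the long-lived scaling (-0.46, adjusted p = 0.04971), quantile normalization (-0.54) and the trended eBayes. Bcl2's differences of -0.41 ± 0.21 and -0.34 ± 0.21 did not pass (adjusted p = 0.3171 and 0.4095).

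Bcl2l1 fell by 0.32 at 8 h in Mettl14 knockdown, 0.38 in Mettl3 knockdown and 0.53 in scramble (SE 0.08 each), and all 3 calls were kept under every alternative. Bbc3 fell by 0.44 in Mettl14 knockdown and 0.37 in scramble (SE 0.13 each), and its value of -0.28 in Mettl3 knockdown did not pass (adjusted p = 0.08062). Under the long-lived scaling Bbc3 fell in all 3, by 0.85, 0.63 and 0.72 in Mettl14 knockdown, Mettl3 knockdown and scramble, with an adjusted p of 0.001139 in Mettl3 knockdown. Bcl2l1 fell there by 0.72, 0.74 and 0.88. Bbc3's Mettl14 call was lost without replicate 2 at 0 h (-0.38) or at 8 h (-0.23), and its scramble call without scramble replicate 1 at 8 h (-0.23) or either scramble array at 0 h (-0.39 and -0.35). At 4 h the falls of Bcl2l1 (0.20, adjusted p = 0.04945) and Bbc3 (0.33, adjusted p = 0.04757) in Mettl14 knockdown were close to the threshold, and 16 and 15 of 25 settings lost them. Bcl2 passed in none of the 6 time comparisons, at -0.12 to 0.28. Under the long-lived scaling it fell at 8 h in Mettl14 knockdown (-0.53, adjusted p = 0.008085) and in Mettl3 knockdown (-0.41, adjusted p = 0.03211), and without scramble replicate 1 at 0 h it rose at 8 h in scramble (0.51, adjusted p = 0.01342). The 3 genes that rose against the array did so less under the long-lived scaling. Bak1 rose by 0.49, 0.54 and 0.64 at 8 h in Mettl14 knockdown, Mettl3 knockdown and scramble, which became 0.08, 0.18 and 0.29 and lost the call in Mettl14 knockdown (adjusted p = 0.2832). Casp8 rose by 0.24, 0.46 and 0.64, which became -0.16, 0.10 and 0.30 and so turned its direction in Mettl14 knockdown and lost the call in both knockdowns (adjusted p = 0.1055 and 0.3164). That rise of 0.24 was also lost without replicate 2 at 0 h (0.18) or at 8 h (0.20). Pmaip1 rose by 0.47 in Mettl3 knockdown and 0.40 in scramble, with 0.23 in Mettl14 knockdown that did not pass, and these became 0.11, 0.05 and -0.17, with both calls lost (adjusted p = 0.381 and 0.7353). The scramble call was also lost without scramble replicate 1 at 8 h (0.32), and the Mettl3 rise was 0.29 without replicate 2 of Mettl3 knockdown at 0 h. At 4 h that scaling took the calls of Bak1 and Casp8 in both knockdowns, and of Pmaip1 in Mettl3 knockdown and scramble.

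Mcl1, Pmaip1 and Bbc3 were taken as transcripts known to be short-lived and Bax, Bak1 and Bcl2l1 as stable ones. Without Bax, the stable class had 2 measured members. The median change of the short-lived class minus that of the stable class was -0.46 ± 0.19 at 4 h and -0.52 ± 0.29 at 8 h in Mettl14 knockdown (SD between arrays of the later time, n = 2). It was -0.16 ± 0.03 and -0.35 ± 0.14 in Mettl3 knockdown, and -0.33 ± 0.04 and -0.42 ± 0.14 in scramble. Each later array was set against the mean of the 0 h arrays, so the SD leaves out the spread of the 0 h arrays and understates that of the change. The Mettl14 value at 8 h was -0.32 without replicate 2 and -0.73 without replicate 1 at 8 h, and the Mettl3 value at 4 h was -0.10 without replicate 1 and -0.21 without replicate 2 at 0 h. Bbc3 was the median of its class in all 6, so these differences rest on that gene and on the mean of Bak1 and Bcl2l1. The classes did not separate by member: Pmaip1 rose against the array in 4 of 6 comparisons where Mcl1 fell in all 6, and Bcl2l1 fell in 5 of 6 where Bak1 rose in all 6. No test was made, since members are not replicates.

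**Figure D4:**
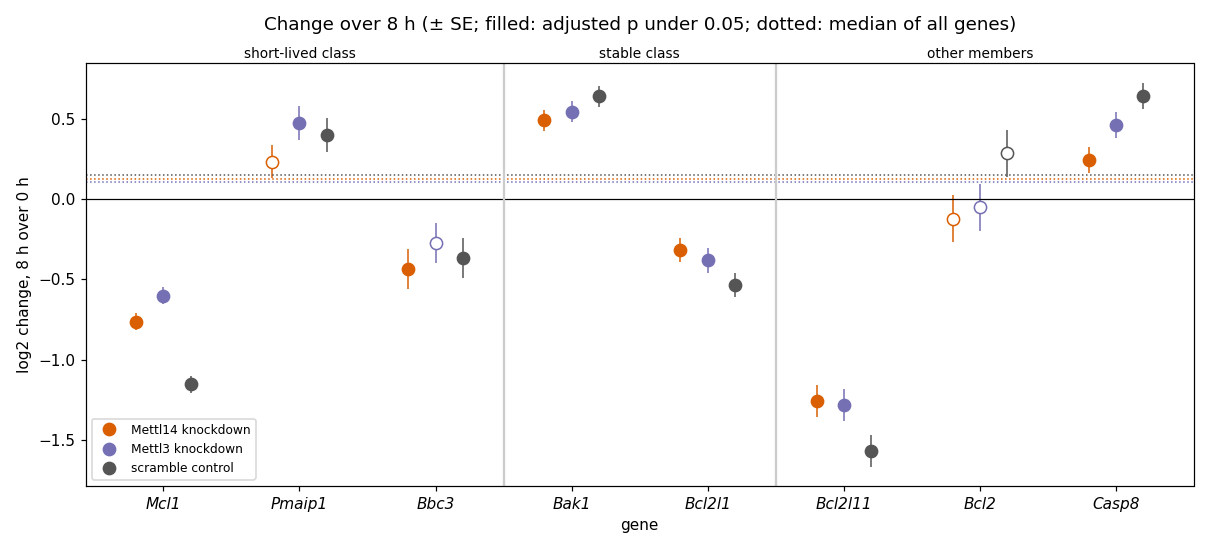
Log2 change between 0 and 8 h of the 8 members in Mettl14 knockdown (orange), Mettl3 knockdown (purple) and scramble (grey), grouped as short-lived, stable and other. Bars are standard errors, filled symbols passed an adjusted p of 0.05, and dotted lines mark the median of all genes tested (0.12, 0.11 and 0.15). Bcl2l11 falls furthest, at -1.26 to -1.57, and Pmaip1, Bak1 and Casp8 lie above 0, which under the long-lived scaling turns below 0 for Casp8 and Pmaip1 in Mettl14 knockdown.

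The knockdown effect at 0 h differed between the repeat set and the time course for 4 of the 8 members in Mettl14 knockdown, where 16.5% of all genes passed, and for 3 in Mettl3 knockdown, where 9.81% passed. Pmaip1 had the largest gap, with effects of 0.10 in the repeat set and 0.96 in the time course for Mettl14 knockdown, a difference of -0.87 ± 0.13 (adjusted p = 0.0002192). For Mettl3 knockdown the effects were -0.06 and 0.53, a difference of -0.58 ± 0.13 (adjusted p = 0.009313). Casp8's effect was smaller in the repeat set by 0.53 ± 0.12 in Mettl14 knockdown and 0.60 ± 0.12 in Mettl3 knockdown (adjusted p = 0.007803 and 0.00532). Mcl1's difference was -0.37 ± 0.07 in Mettl14 knockdown (adjusted p = 0.001225) and -0.24 ± 0.07 in Mettl3 knockdown (adjusted p = 0.03744), both lost with the mean of its probe sets (-0.24 and -0.11). The Mettl3 value also lost its call without the filter, under the long-lived scaling (-0.23) and without any of 7 of the 26 arrays, at -0.25 to -0.17. Bak1's effect differed by 0.28 ± 0.08 in Mettl14 knockdown (adjusted p = 0.02357), lost under the long-lived scaling (0.23) and without any of 6 arrays (0.22 to 0.29). Bcl2, Bcl2l1 and Bcl2l11 did not pass in either difference. For Mettl14 and Mettl3 knockdown the values were -0.54 ± 0.20 and -0.32 ± 0.20 for Bcl2, 0.05 ± 0.10 and -0.17 ± 0.10 for Bcl2l1, and 0.35 ± 0.12 and 0.12 ± 0.12 for Bcl2l11. The Mettl14 value of Bcl2 (adjusted p = 0.07105) passed under the trended eBayes and without scramble replicate 1 at 0 h of the time course (-0.77). That of Bcl2l11 (adjusted p = 0.0658) passed under the trended eBayes and without either scramble array at 8 h.

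The level of some members differed between the scramble controls at 0 h of the sets, which is given as a value because the sets were not compared directly. Bbc3 gave 8.03 to 8.31 in the repeat set and 7.19 to 7.23 in the time course, Bcl2l1 gave 7.56 to 7.61 in the repeat set and 8.20 to 8.21 in the time course, and Mcl1 gave 11.07 to 11.17 in the repeat set and 11.74 in the time course. Whether all arrays were normalized together is not given in the sources used here.

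Outside the members, 12 other genes known as p53 targets were set beside Pmaip1 and Bbc3, from a list chosen with earlier results of these data known. Of these, 3 rose and 4 fell in Mettl14 knockdown of the repeat set (36.2% of all genes called), and 1 rose and 6 fell in Mettl3 knockdown (35.3%). In the time course at 0 h, 10 of the 12 rose and none fell in each knockdown, beside 39.5% and 37.8% of all genes called. Medians of the 12 were -0.01 and -0.13 in the repeat set and 0.66 and 0.52 in the time course. All 12 passed the test of the difference between sets, beside 16.5% and 9.81% of all genes in Mettl14 and Mettl3 knockdown. The effect was smaller or more negative in the repeat set for all 12 in both knockdowns. Pmaip1's effect was likewise smaller there, and Bbc3's differences of -0.36 ± 0.17 and -0.32 ± 0.17 did not pass. Over 8 h, 9 of the 12 fell in scramble (21.6% of all genes fell), 7 in Mettl14 knockdown (19.4%) and 7 in Mettl3 knockdown (19.2%). Pmaip1 fell in none.

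**Figure D5:**
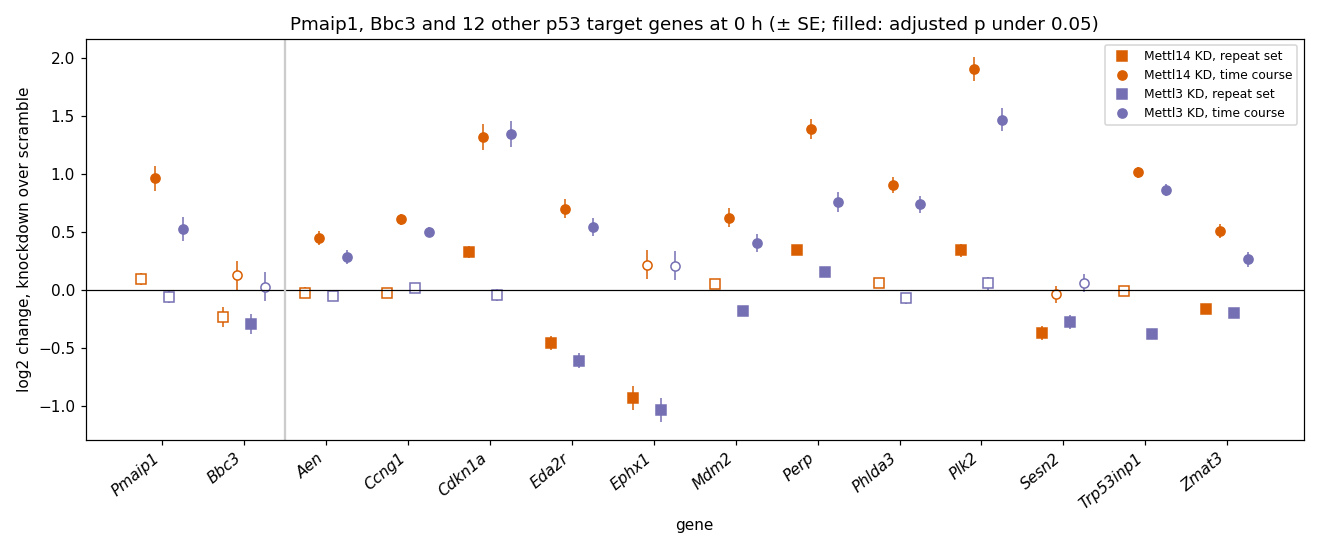
Log2 change, knockdown over scramble at 0 h, of Pmaip1 and Bbc3 and of 12 other p53 target genes, in the repeat set (squares) and the time course (circles), with Mettl14 knockdown in orange and Mettl3 knockdown in purple. Bars are standard errors, and filled symbols passed an adjusted p of 0.05. For Pmaip1 and each of the 12 genes right of the grey line, the square lies below the circle of the same colour.

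Of the other Bcl2 family members, 9 of 16 listed were tested, and 2 rose and none fell at 0 h in each knockdown of the time course, a smaller share than the 39.5% and 37.8% of all genes called there. These were Bcl2l13, a mitochondrial relative (0.43 ± 0.05 in Mettl14 and 0.26 ± 0.05 in Mettl3 knockdown), and Bok, a relative of the effectors (0.22 ± 0.05 and 0.38 ± 0.05). In the repeat set 2 rose and 1 fell in Mettl14 knockdown (36.2% of all genes called), and 3 rose and 1 fell in Mettl3 knockdown (35.3%). There Bcl2l13 rose by 0.26 ± 0.06 and 0.22 ± 0.06, Bik, a BH3-only gene, rose by 0.28 ± 0.09 and 0.39 ± 0.09, and Bnip3, a mitochondrial gene known to be induced by low oxygen, fell by 0.30 ± 0.06 and 0.48 ± 0.06. Over 8 h in scramble 4 of the 9 rose and 1 fell, near the 60.8% of all genes called there. The faller was Bid, which carries the Casp8 signal to mitochondria, at -0.43 ± 0.05. The median change of this list at 0 h was -0.01 in Mettl14 and 0.02 in Mettl3 knockdown, near that of all genes.

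Among other caspases only 3 of 9 listed were tested. At 0 h 1 rose and 1 fell in Mettl14 knockdown, in either set, and 1 rose and none fell in Mettl3 knockdown. Of all genes, 39.5% and 37.8% were called in Mettl14 and Mettl3 knockdown of the time course, and 36.2% and 35.3% in the repeat set. The executioner Casp6 rose in all 8 knockdown comparisons, by 0.46 ± 0.07 and 0.65 ± 0.07 at 0 h of the time course and by 0.44 ± 0.05 and 0.27 ± 0.05 in the repeat set. Casp9, the initiator of the mitochondrial route, fell by 0.28 ± 0.06 in Mettl14 knockdown at 0 h of the time course. It did not pass in Mettl3 knockdown there (-0.11) or in the repeat set (-0.09 in Mettl14 and -0.05 in Mettl3 knockdown). Casp2 fell by 1.11 ± 0.12 over 8 h in Mettl14 knockdown, 0.99 ± 0.12 in Mettl3 knockdown and 1.37 ± 0.12 in scramble.

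Of the apoptosome and the caspase inhibitors, all 13 were tested. At 0 h of the time course 4 rose and 1 fell in Mettl14 knockdown, and 3 rose and 2 fell in Mettl3 knockdown, with medians of 0.01 and 0.03. That is close to the share of all genes called (39.5% and 37.8%). In the repeat set 3 and 1 rose and none fell, a smaller share than the 36.2% and 35.3% of all genes called there. Apaf1, the scaffold of the apoptosome and a known p53 target, rose by 0.70 ± 0.07 in Mettl14 and 0.50 ± 0.07 in Mettl3 knockdown. Its effect was lower by 0.61 ± 0.09 in the repeat set than in the time course for each knockdown (adjusted p = 0.0001549 and 0.0002588), as Pmaip1's was. Htra2, a mitochondrial protease that can relieve caspase inhibition, rose by 0.38 ± 0.05 and 0.31 ± 0.05, and by 0.44 ± 0.05 and 0.53 ± 0.05 in the repeat set. Birc2, a ubiquitin ligase, fell by 1.40 ± 0.19 over 8 h in scramble.

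In the death receptor route, 11 of 15 genes listed beside Casp8 were tested. Of these, 5 rose and 1 fell in Mettl14 knockdown at 0 h of the time course, and 7 rose and 1 fell in Mettl3 knockdown. The medians were 0.17 and 0.28, and 39.5% and 37.8% of all genes were called. Of the same genes, 6 rose and none fell in Mettl14 knockdown of the repeat set (36.2% of all genes called), and 5 rose and 1 fell in Mettl3 knockdown (35.3%). Tnfrsf10b, the mouse TRAIL receptor, rose by 0.79 ± 0.07 and 0.77 ± 0.07 in the time course and by 0.29 ± 0.04 and 0.25 ± 0.04 in the repeat set. Mlkl, the executor of necroptosis, rose by 1.05 ± 0.15 and 1.42 ± 0.15 in the time course, and by 0.60 ± 0.09 in Mettl3 knockdown of the repeat set. Fadd, the adaptor that recruits Casp8, rose by 0.57 ± 0.11 in Mettl14 knockdown, and Cflar, which restrains Casp8, rose by 0.43 ± 0.08 in Mettl3 knockdown. Their values in the other knockdown are not given here, so neither rise is shown to be particular to its knockdown. Tnfrsf21, another death receptor, rose by 0.66 ± 0.05 and 0.47 ± 0.05 in the repeat set. Both receptors lost less signal over 8 h under knockdown than in scramble, as Mcl1 did. The differences were 0.84 ± 0.08 and 0.74 ± 0.08 for Tnfrsf21 and 0.66 ± 0.10 and 0.71 ± 0.10 for Tnfrsf10b, in Mettl14 and Mettl3 knockdown. In scramble they fell by 0.96 ± 0.06 and 0.87 ± 0.07.

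For the members with the widest range of group means, the genes most like them over the 13 group means were named by Pearson's r, as a description. Casp8 was followed most closely by P3h2 (r = 0.992), Tpm4 (0.991) and Pik3c2a (0.989). Bcl2l11 was followed by Zfp334 (0.980), E2f7 (0.978) and Obi1 (0.972), and Bbc3 by Ccng2 (0.982), Tbcel (0.981) and Zfp367 (0.976). The group means share arrays of 2 sets, and Bbc3's level differs between these sets. Over the 9 groups of the time course alone the values for Bbc3 were 0.858, 0.901 and 0.927.

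The summed signal of each list of other cell types' markers was higher in the knockdowns at 0 h, with no overlap with scramble, and that of the stem cell markers was lower. Each sum takes in all markers of its list on the array, tested or not. These were 21 feeder fibroblast, 9 trophoblast, 5 primed epiblast and 10 stem cell markers. The counts below stand beside 39.5% and 37.8% of all genes called in Mettl14 and Mettl3 knockdown of the time course, and 36.2% and 35.3% in the repeat set. Of 17 feeder fibroblast markers tested, 7 rose and 1 fell in Mettl14 knockdown and 6 rose and 2 fell in Mettl3 knockdown, in the time course at 0 h. In the repeat set 5 rose and none fell in Mettl14 knockdown, and 6 rose and 1 fell in Mettl3 knockdown, so the fibroblast counts lay on both sides of the share of all genes. The log2 of their summed signal was 13.40 to 13.44 in Mettl14 knockdown and 13.37 in Mettl3 knockdown at 0 h, against at most 13.01 in scramble. Repeat arrays had 13.65 in Mettl14 knockdown against 13.50 to 13.51 in its scramble, and 13.52 to 13.54 in Mettl3 knockdown against 13.38 to 13.39 in its own. Of 8 trophoblast markers tested, 5 rose in Mettl14 and 4 in Mettl3 knockdown at 0 h in the time course, and 1 fell in each. The log2 of their summed signal was 13.13 to 13.15 in Mettl14 and 13.23 to 13.28 in Mettl3 knockdown against 11.46 to 11.47 in scramble. A sum weighs the brightest markers most. The changes of single trophoblast markers ran from -1.33 to 2.34 in Mettl14 and from -1.20 to 2.51 in Mettl3 knockdown. In the repeat set 6 rose and 1 fell in Mettl14 knockdown and 5 rose and 1 fell in Mettl3 knockdown, with sums of 13.49 to 13.52 against 12.20 to 12.25 in the scramble of Mettl14 knockdown and 12.98 to 12.99 against 12.05 in that of Mettl3 knockdown. All 5 primed epiblast markers rose in each knockdown of the time course at 0 h, where their sums were 12.00 to 12.08 in Mettl14 and 12.00 to 12.04 in Mettl3 knockdown against 11.25 to 11.32 in scramble. In the repeat set 3 of them rose in Mettl14 knockdown (11.64 to 11.70 against 11.32 to 11.34 in its scramble) and 5 in Mettl3 knockdown (11.95 to 11.96 against 11.18 to 11.22 in its own), and none fell. Of 9 stem cell markers tested, none rose and 7 to 9 fell in the 4 comparisons at 0 h. The log2 of their summed signal was 14.59 to 14.72 in the knockdowns against 15.06 to 15.10 in scramble, over both sets. The part of these cell types in the rises of Casp8 and the other members was not tested.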

How the data were processed

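The values are log2 signals per probe set, which the authors deposited. The submitters' processing notes name oligo and RMA with no version. Of 41345 probe sets, 23521 were paired with exactly 1 symbol, 1814 with several and 16010 were not listed. The brightest probe set by mean over 26 arrays stood for a gene, and the dimmest 7393 genes, a fraction of 0.333, were left out, with 14787 tested (lowest mean 6.00). Time course and repeat set were fitted separately with limma 3.58.1 in R 4.3.3 (lmFit, eBayes, two-sided, 9 and 4 residual degrees of freedom). The differences between the sets came from a fit over all 26 arrays. P-values were adjusted by Benjamini-Hochberg over all genes tested, with a threshold of 0.05. A called gene is said to have risen or fallen. With 2 arrays a group, their number limits the precision. The fits were tested on simulated data.

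The members and lists were chosen with earlier results of these data known. All members could be named in every comparison. From each of 4 wider lists, up to 3 called genes with the smallest adjusted p per comparison could be named, and examples were taken from those. Cell type markers were named only as lists with their defining genes, and the p53 list only as counts. Alternatives were no filter, averaging the probe sets of a gene, a trended robust eBayes, a replicate block, quantile normalization, equal medians of 30 long-lived transcripts, 1 fit over all arrays, and each array left out. Figures used matplotlib 3.10.9.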

Additional observations from a re-analysis of the deposited data

Results flagged for a closer look

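The 8 h change of Mcl1 differed from that of scramble by 0.39 in Mettl14 knockdown and by 0.55 in Mettl3 knockdown, by the test of the difference itself. The effect of Mettl14 knockdown at 0 h differed between the repeat set and the time course for Mcl1 (-0.37), Bak1 (0.28), Pmaip1 (-0.87) and Casp8 (-0.53). For Mettl3 knockdown it differed for Mcl1 (-0.24), Pmaip1 (-0.58) and Casp8 (-0.60). Signs are the repeat set minus the time course. Set, culture and normalization cannot be told apart in the last 7 differences.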

How the results depend on the processing

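Of 144 member values, 88 were called and 54 of these kept the call under every alternative. Equal medians of long-lived transcripts took 14 calls, averaging the probe sets of a gene 12, leaving out an array 23, no filter 9, and the other settings 1 to 4 each. A replicate block took 4 calls and gave 1, and the Mettl14 difference of 8 h changes then had 662 genes instead of 738. Replicate numbers did not pair the arrays in a common direction: deviations of arrays with the same number correlated at -0.436 to 0.335 over 36 pairs of the time course and at -0.0475 to 0.0425 over 6 pairs of the repeat set. In the time course 12 pairs lay above 0.1 and 12 below -0.1. Some groups thus shared deviations, with a sign that did not follow the replicate number, and the main fit treats the arrays as independent. Members called came to 3 instead of 5 with the mean of probe sets in Mettl14 knockdown at 4 h, and to 3 instead of 6 with the long-lived scaling in Mettl3 knockdown between 0 and 4 h. They came to 4 instead of 7 without the filter, and with 1 fit over all arrays, in Mettl3 knockdown of the repeat set, and to 0 instead of 1 with the mean of probe sets in both differences of 8 h changes. In that of Mettl14 knockdown they came to 2 under the trended eBayes, quantile normalization and the long-lived scaling. Genes called there were 345 without the filter and 1168 with 1 fit over all arrays, and for Mettl3 knockdown 251, 972 and, with the trended eBayes, 789 instead of 513. The long-lived scaling moved the split of called genes to 64.8% higher from 49.1% in Mettl14 knockdown at 0 h of the time course, to 64.1% from 50.7% in Mettl3 knockdown of the repeat set, to 50.4% from 71.8% in the Mettl14 difference of 8 h changes, and to 34.8% from 52.4% in the Mettl14 difference between sets. Quantile normalization moved it to 60.5% to 60.6% from 70.7% to 71.5% in the 4 h changes, and to 57.2% and 59.3% from 71.8% and 71% in the Mettl14 and Mettl3 differences of 8 h changes. Leaving out an array in turn gave 327 to 766 and 222 to 633 genes in the 8 h differences of Mettl14 and Mettl3 knockdown, and 1 to 2 members in each, 940 to 1526 genes in the Mettl3 difference between sets, and a class difference of -0.21 to -0.10 at 4 h in Mettl3 knockdown. Members called were 3 to 5 for Mettl14 knockdown at 4 h, 3 to 5 and 3 to 6 for Mettl3 knockdown at 0 and 4 h, and 4 to 5 for its repeat set. Signs turned in uncalled values and in 1 call, Casp8 in Mettl14 knockdown at 8 h against 0 h (-0.16 with the long-lived scaling). Not all of the uncalled values were near 0: without that scaling, Bcl2 in scramble was 0.28 and Pmaip1 in Mettl14 knockdown 0.23 at 8 h against 0 h. With that scaling, values against 0 h became -0.19 for Bcl2 and -0.12 for Pmaip1 in Mettl14 knockdown at 4 h, -0.17 for Pmaip1 at 8 h, -0.23 for Bcl2 in Mettl3 knockdown at 4 h, -0.0742 and -0.0641 for Bcl2 in scramble at 4 and 8 h, and -0.00399 for Bcl2l1 in the Mettl14 difference between sets. In Mettl3 knockdown at 0 h it gave 0.00464 for Mcl1 and 0.0280 for Bak1, and at 4 h 0.00882 for Bak1. Quantile normalization gave 0.00936 for Mcl1, 0.0132 for Bak1 and -0.0272 for Bbc3 in Mettl3 knockdown at 0 h, 0.0288 for Bak1 at 4 h, -0.0418 for Bbc3 in Mettl14 knockdown at 4 h, and -0.0389 for Bcl2 in Mettl3 knockdown between 0 and 4 h. The mean of probe sets gave -0.0789 for Bcl2 there and 0.0409 between 0 and 8 h. With an array left out, Bak1 spanned -0.0839 to 0.0579 at 0 h and -0.0553 to 0.0335 at 4 h in Mettl3 knockdown. Bbc3 spanned -0.10 to 0.14 and -0.15 to 0.27 in Mettl14 knockdown at 4 and 8 h, -0.0282 to 0.0874 and -0.0173 to 0.26 in Mettl3 knockdown at 0 and 8 h, and -0.28 to 0.14 and -0.0469 to 0.23 in the 8 h differences. Bcl2 against 0 h spanned -0.0304 to 0.20 in Mettl14 knockdown at 4 h, -0.0474 to 0.0634 and -0.21 to 0.11 in Mettl3 knockdown at 4 and 8 h, and -0.0851 to 0.37 in scramble at 4 h. Mcl1 in Mettl3 knockdown at 0 h spanned -0.10 to 0.0319, and Pmaip1 in the Mettl3 difference of 8 h changes -0.11 to 0.26. The cause was not tested. The dimmer probe set of Bcl2 had a mean of 5.31, under the lowest mean kept (6.00), and that of Mcl1 a mean of 7.09, above it. Whether background signal limits them was not tested.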
